A study of Mus musculus with 12 samples.

Results

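The Schlafen family of the mouse aorta is described here through 7 genes, Slfn1, Slfn2, Slfn3, Slfn4, Slfn5, Slfn8 and Slfn9, found by their symbols among the 55092 features of the deposited RNA-Seq table. These genes were selected on the comparison of CSA with CFA aortas, in which Slfn4 held the highest fold change, so the members' values that involve CSA are given as a description, with no p-value; other genes were tested there. RNA-Seq was performed on abdominal aortas of 12 male mice, 3 in each of 4 groups. The mice were CCN2fl/fl animals without Cre or CCN2SMCΔ animals, that is, floxed mice with Myh11-Cre-ERT2, a tamoxifen-activated Cre under the promoter of smooth muscle myosin heavy chain that deletes CCN2 in smooth muscle cells (SMCs) and leaves the gene intact in other cells of the vessel. At 8 weeks of age all 4 groups received 5 doses of tamoxifen, and after a washout of 2 weeks osmotic pumps delivered saline or angiotensin II (Ang II, 500 ng/kg/min) for 7 days. The groups are named as in the study: CFS, CCN2fl/fl with saline; CSS, CCN2SMCΔ with saline; CFA, CCN2fl/fl with Ang II; CSA, CCN2SMCΔ with Ang II. Controls carried no Cre, so the presence of Cre and the loss of CCN2 cannot be told apart in these groups.

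Schlafen genes encode a family of proteins first described in developing and resting lymphocytes, and several of them are induced by type I interferon in immune cells. In the mouse they fall into 3 classes by protein length: short (Slfn1 and Slfn2), intermediate (Slfn3 and Slfn4) and long (Slfn5, Slfn8, Slfn9 and others), the long class having an additional helicase-like region at its C-terminal end. Slfn1 is known for slowing the proliferation of T cells, Slfn2 for keeping T cells and monocytes quiescent, Slfn3 for work on intestinal and T cell differentiation, Slfn4 for its regulation in macrophages and other myeloid cells, and Slfn5 as a nuclear, interferon-responsive member that is also found outside the immune system.

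The coding lengths in GENCODE M21 followed these classes. The longest complete coding sequence held 337 codons for Slfn1, 378 for Slfn2, 517 for Slfn3, 602 for Slfn4, 884 for Slfn5, and 910 each for Slfn8 and Slfn9. The most alike pairs were Slfn3 with Slfn4, identical at 95.3% of 1521 aligned coding bases, and Slfn8 with Slfn9, identical at 92.7% of 2730. The remaining pairs were identical at 59.5% (Slfn1 with Slfn5) to 76.7% (Slfn2 with Slfn3) of their aligned bases. No stretch of 150 bases, the length of 1 read, was shared between the transcripts of Slfn3 and Slfn4 or of Slfn8 and Slfn9. With other genes, Slfn3 shared 1.29% of such stretches with the pseudogene Gm11427, Slfn9 shared 1.46% with the pseudogene Slfn10-ps, and Slfn5 shared 5.46% with its antisense gene Slfn5os, which overlaps 8.84% of its exonic bases. Whether strand was used in counting is not given in the sources used here, so fragments of Slfn5 and Slfn5os cannot be told apart over that overlap.

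All 7 genes lie on chromosome 11 (build GRCm38, the sequence of mm10) in a cluster of 8 protein-coding Schlafen genes that spans 335378 bp, from 82951349 to 83286726. In order, these are Slfn5 (82951349 to 82964840, plus strand), Slfn9 (82978390 to 82991830, minus), Slfn8 (83002158 to 83020810, minus), Slfn2 (83065112 to 83070678, plus), Slfn1 (83116849 to 83122670, plus), Slfn4 (83175186 to 83190216, plus), Slfn3 (83191330 to 83215154, plus) and Slfn14 (83275110 to 83286726, minus). Slfn10-ps, a transcribed pseudogene, sits between Slfn8 and Slfn2.

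Since all 7 genes were higher in CSA, the DNA before their start sites was read for letters they share. Promoter windows of 300 bases (250 before and 50 after a start site, RefSeq, GRCm38.p6) were available for all 7 genes, 8 windows in all because Slfn8 had 2. The motifs searched, 3 in number, were read on both strands, and their letters were chosen after the promoters had been seen: GAAANNGAAA, the core of the interferon-stimulated response element (ISRE) bound by STAT and IRF factors, CAGGAAGT, a site of ETS factors such as the myeloid factor PU.1, and TTCNNNGAA, the gamma-activated site bound by STAT dimers. The ISRE letters were present in the windows of the long members Slfn5, Slfn8 and Slfn9 and in 3.44% of all 32851 RefSeq windows. For Slfn5 the RefSeq start site lies inside the GENCODE span given above. Its match, at 82951947 to 82951956, therefore lies before the RefSeq start but after the GENCODE start at 82951349. The ETS letters were present before the short and intermediate members Slfn1, Slfn2, Slfn3 and Slfn4 and in 3.33% of all windows. No member window held the gamma-activated letters, which occurred in 8.3% of all windows. The stretches that hold the matches are shown because they divide these 7 genes as protein length does. The window of the long member Slfn14 was also searched and held none of these letters, so the division does not extend to it. Because the letters were chosen after the promoters had been seen, nothing is read from the division. Each stretch is written 5′ to 3′ on the strand of its gene with the match in capitals (for Slfn3, the first of its 2 matches).
Slfn1, chr11:83116720-83116779 (plus strand): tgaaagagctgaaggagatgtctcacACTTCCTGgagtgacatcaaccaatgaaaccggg
Slfn2, chr11:83065031-83065090 (plus strand): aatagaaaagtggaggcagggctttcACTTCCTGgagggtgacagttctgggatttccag
Slfn3, chr11:83191244-83191303 (plus strand): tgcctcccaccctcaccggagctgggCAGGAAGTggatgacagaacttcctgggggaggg
Slfn4, chr11:83175087-83175146 (plus strand): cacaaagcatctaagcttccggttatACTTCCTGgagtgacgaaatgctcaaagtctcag
Slfn5, chr11:82951921-82951982 (plus strand): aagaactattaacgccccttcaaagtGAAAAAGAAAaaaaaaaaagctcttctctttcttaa
Slfn8, chr11:83020823-83020884 (minus strand): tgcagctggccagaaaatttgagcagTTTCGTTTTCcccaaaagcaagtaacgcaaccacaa
Slfn9, chr11:82991840-82991901 (minus strand): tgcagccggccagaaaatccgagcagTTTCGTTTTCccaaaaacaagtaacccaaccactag

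In Slfn1, Slfn2 and Slfn4 the ETS letters lay on the opposite strand, at bases -74 to -67, -55 to -48 and -73 to -66 from the start site. Slfn3 held them at 2 places, -60 to -53 on its own strand and at -42 to -35 on the other. Slfn1 and Slfn4 shared 15 identical bases across this match, and Slfn8 and Slfn9 shared 20 identical bases as their longest run. The ISRE letters lay at -155 to -146 in Slfn5, at -45 to -36 in Slfn9, and at -136 to -127 or -48 to -39 in Slfn8, depending on which of its 2 start sites is used. A match describes these letters only, and binding was not measured.

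Depth ranged from 14558580 to 23107811 fragments per mouse, lowest in CSA mouse 03. This library stood apart from its group: over the tested genes, its log2(FPKM + 0.1) differed from those of the other CSA mice by a root mean square of 1.21 and 1.2, and theirs differed from each other by 0.505, while pairs within the other groups differed by 0.586 to 0.743. The members' log2 fold changes and mean levels in CSA are therefore also given without it. CCN2 itself (Ccn2), measured in the whole aortic tissue and not in SMCs alone, was 328.2 ± 71.9 FPKM in CSA and 893.9 ± 289.7 in CFA (SD, n = 3 each; limma log2 fold change -1.41, SE 0.34, adjusted p = 0.00622), and 554.0 ± 105.9 in CSS against 766.0 ± 317.9 in CFS (-0.40, SE 0.34, adjusted p = 1.0). The summed FPKM of 8 smooth muscle markers lay between 5465.9 and 10215.6 in the mice of CFS, CSS and CFA and between 793.0 and 937.5 in CSA. A lower sum in whole tissue may come from fewer cells of a type or from less RNA per cell, and these cannot be told apart; the same holds for a higher sum.

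In aortas of saline mice most of the family's signal came from Slfn5, which stood at place 2924 of 14676 tested genes by its level in CFS, while Slfn2 stood at place 7171 and the other 5 members between 11737 and 14027. The summed FPKM of the 7 genes was 25.0 ± 4.26 in CFS, 24.4 ± 4.43 in CSS, 34.1 ± 18.5 in CFA and 550.2 ± 47.9 in CSA (n = 3 mice each, ± SD). FPKM corrects for gene length, so levels can be compared between genes. In CFS the order of the levels was Slfn5 (16.1 ± 3.20 FPKM), Slfn2 (5.43 ± 0.924), Slfn8 (1.49 ± 0.379), Slfn3 (0.797 ± 0.199), Slfn9 (0.453 ± 0.113), Slfn4 (0.346 ± 0.0870) and Slfn1 (0.321 ± 0.173). The 3 mice did not overlap between Slfn5 and Slfn2, Slfn2 and Slfn8, Slfn8 and Slfn3, or Slfn3 and Slfn9, whereas Slfn9, Slfn4 and Slfn1 overlapped. In CSA the order was Slfn4 (217.4 ± 16.6 FPKM), Slfn2 (137.8 ± 8.89), Slfn1 (74 ± 16.5), Slfn5 (64.9 ± 17.3), Slfn8 (40.0 ± 17.5), Slfn9 (13.8 ± 6.37) and Slfn3 (2.23 ± 0.411). Here Slfn4, Slfn2 and Slfn1 were separated from each other in every mouse, while Slfn1 overlapped with Slfn5 and Slfn5 with Slfn8, and the mice did not overlap between Slfn8, Slfn9 and Slfn3.

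**Figure D1:**
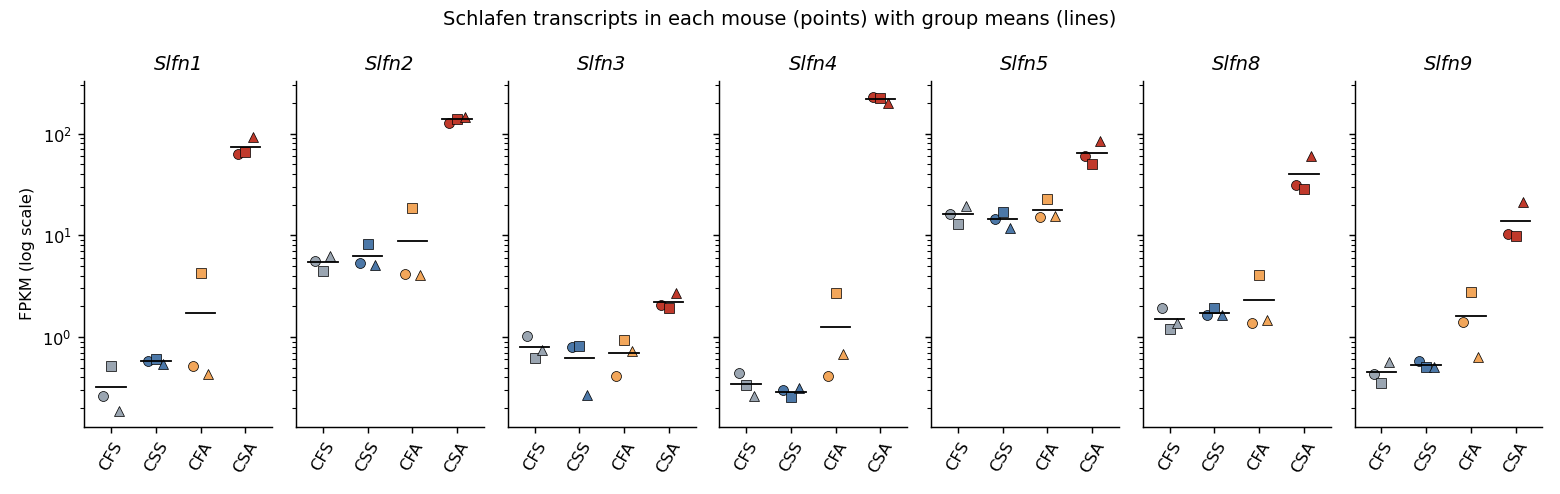
FPKM of each Schlafen gene (log scale) in every mouse of the groups CFS, CSS, CFA and CSA; points are single mice, with the same marker shape for the same position in order of mouse number, and lines are group means (n = 3). In every panel the 3 CSA mice lie above all other mice, and in CFA 1 mouse (number 72, square) lies above the other two.

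The makeup of the family sum differed between CSA and the other groups. Slfn5 gave 63.0% to 67.0% of the family FPKM in the CFS mice, 57.8% to 61% in CSS, 64.5%, 40.5% and 66.0% in CFA mice 71, 72 and 74, and 9.63% to 13.9% in CSA. Slfn4 gave 0.918% to 1.68% in CFS, 0.888% to 1.54% in CSS, 1.78% to 4.86% in CFA and 32.8% to 43.7% in CSA. Thus the leading gene of the family was Slfn5 in all 9 mice outside CSA and Slfn4 in all 3 CSA mice. Slfn2 gave 21.3% to 22.0% in CFS, 22.6% to 28.1% in CSS and 24.1% to 26.9% in CSA, and 17.8%, 33.1% and 17.2% in CFA mice 71, 72 and 74. Slfn1 had a mean share of 1.4% in CFS and 13.4% in CSA, and Slfn3 was 3.20% in CFS and 0.403% in CSA.

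**Figure D2:**
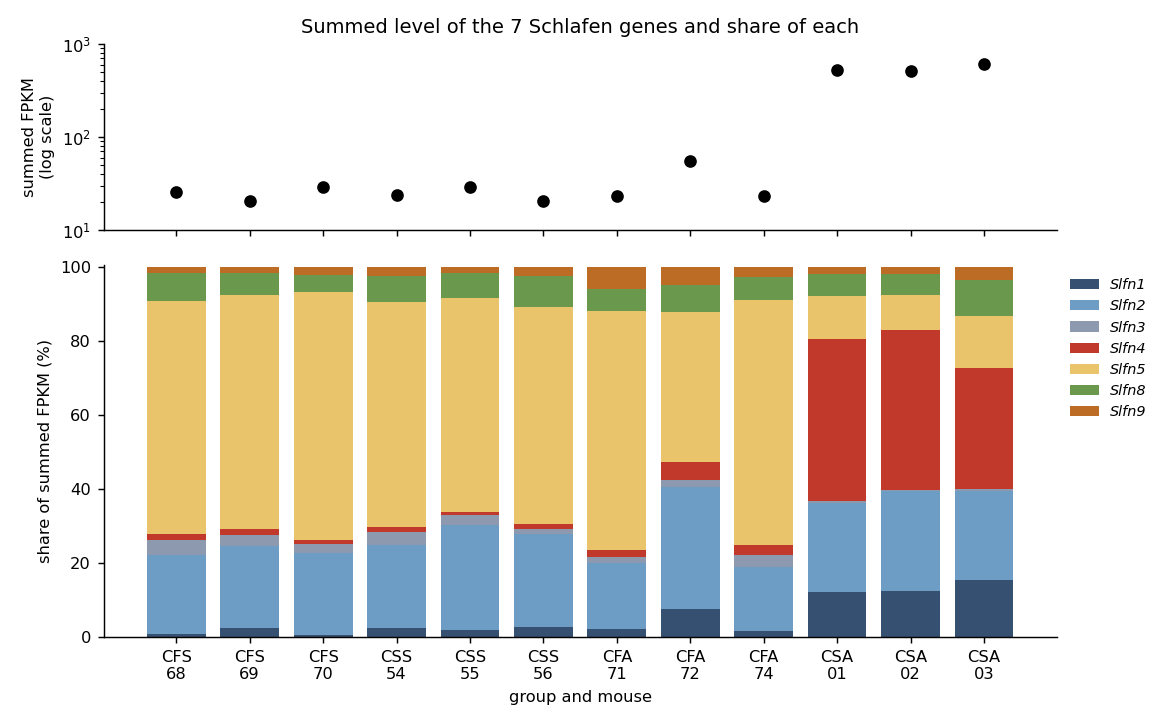
Summed FPKM of the 7 Schlafen genes per mouse (upper panel, log scale) and the percent of that sum from each gene (lower panel, stacked bars). Slfn5 (yellow) is the largest part in the 9 mice outside CSA, and Slfn4 (red) is the largest part in the CSA mice.

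To evaluate the effect of SMC-CCN2 deletion without Ang II, CSS was compared with CFS, whose libraries had no part in the choice of the genes. A call required a log2 fold change beyond 1.5 in either direction with an adjusted p below 0.05 in the limma fit of all 12 libraries. Of the 7 genes 0 met this, and 0 had an unadjusted p under 0.05, against 924 of the 14676 tested genes. Slfn1, Slfn3, Slfn4 and Slfn9 passed the filter on low values only through the CSA libraries, and they rest on few fragments here. All adjusted p were 1.0, and higher calls made up 0.00681% of tested genes. Slfn1 was 0.577, 0.608 and 0.542 FPKM in the CSS mice (20 to 22 fragments each) and 0.261, 0.516 and 0.187 in the CFS mice (6 to 18 fragments). It was the only member whose CSS mice all lay above the CFS mice, as did those of 11.1% of tested genes, and its log2 fold change of 0.76 (SE 0.65) had a 95% interval from -0.68 to 2.19. The spread is pooled over all 12 libraries, so the intervals given here also reflect mice outside this comparison. For Slfn1 the SE was 0.28 without CFA mouse 72 (limma adjusted p = 0.635) and 0.37 with only the 2 groups compared (0.425). The other differences ran from -0.39 for Slfn3 (interval -1.28 to 0.50) to 0.23 for Slfn8 (-0.64 to 1.09). In the fit of all 12 libraries Slfn5, the member with the most fragments, had the narrowest interval, -0.68 to 0.36 around -0.16. This order did not hold without CFA mouse 72, where the SE was 0.22 for Slfn5, 0.19 for Slfn2 and 0.20 for Slfn4. Slfn4 was 0.299, 0.259 and 0.313 FPKM in CSS against 0.437, 0.337 and 0.263 in CFS, and its interval reached from -1.23 to 0.88. The SE behind this interval was 0.48, and it was 0.20 without CFA mouse 72 and 0.32 with only the 2 groups compared.

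To evaluate the effect of Ang II in mice with intact CCN2, CFA was compared with CFS; the CFA libraries are also part of the contrast that chose the genes. Again no member was called, while 0.0204% of tested genes were called higher. An unadjusted p under 0.05 was found for 3 members (Slfn4, Slfn1 and Slfn9) and for 1383 of all tested genes. These 3 passed the filter on low values only through the CSA libraries, so their p-values are no independent support for a difference. Slfn9 was 1.4, 2.76 and 0.641 FPKM in CFA mice 71, 72 and 74 and 0.435, 0.349 and 0.573 in CFS. It was the only member without overlap (higher in 9.44% of tested genes), with a log2 fold change of 1.43 (SE 0.45, limma unadjusted p = 0.00847, adjusted p = 0.291). Slfn4 was 0.417, 2.70 and 0.678 FPKM in CFA, a log2 fold change of 1.24 (SE 0.48, limma adjusted p = 0.438), and the CFA mouse 71 lay within the CFS range. Slfn1 was 0.517, 4.22 and 0.430 FPKM in CFA, a log2 fold change of 1.49 (SE 0.65, limma adjusted p = 0.514), and mouse 74 lay below the highest CFS mouse. For Slfn2, Slfn3, Slfn5 and Slfn8 the log2 fold changes were 0.33, -0.21, 0.13 and 0.44, with adjusted p of 0.849 to 0.956.

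CFA mouse 72 set much of this difference. It lay above both other CFA mice for all 7 genes, by 8.91-fold of their mean for Slfn1, 4.93-fold for Slfn4, 4.48-fold for Slfn2, 2.83-fold for Slfn8, 2.71-fold for Slfn9, 1.63-fold for Slfn3 and 1.47-fold for Slfn5, where 37.1% of all tested genes lay above both. Its summed FPKM of 14 macrophage and monocyte markers was 765.5, against 398.8 and 367.3 in the other CFA mice and 296.6 to 352.2 in CFS. It was also the highest CFA mouse for NK cell (4.57, against 1.74 and 1.37), T cell (2.58, against 1.42 and 0.875), neutrophil (28.2, against 22.2 and 11.3) and dendritic cell markers (8.30, against 6.32 and 6.49). The same held for interferon pathway genes (717.4, against 495.4 and 553.8), but not for B cell markers (2.76, against 2.90 and 1.57). The part of these cells in the Schlafen values was not tested. Without this mouse the log2 fold changes from CFS to CFA were 0.53 for Slfn4, 0.52 for Slfn1 and 0.95 for Slfn9, and those of Slfn2, Slfn5 and Slfn8 turned to -0.39, -0.06 and -0.04. Without CFA mouse 74, the lowest of the CFA mice for Slfn9, the log2 fold change of this gene was 1.93 and it alone passed the thresholds of a call, which is no independent support for the reason given above.

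**Figure D3:**
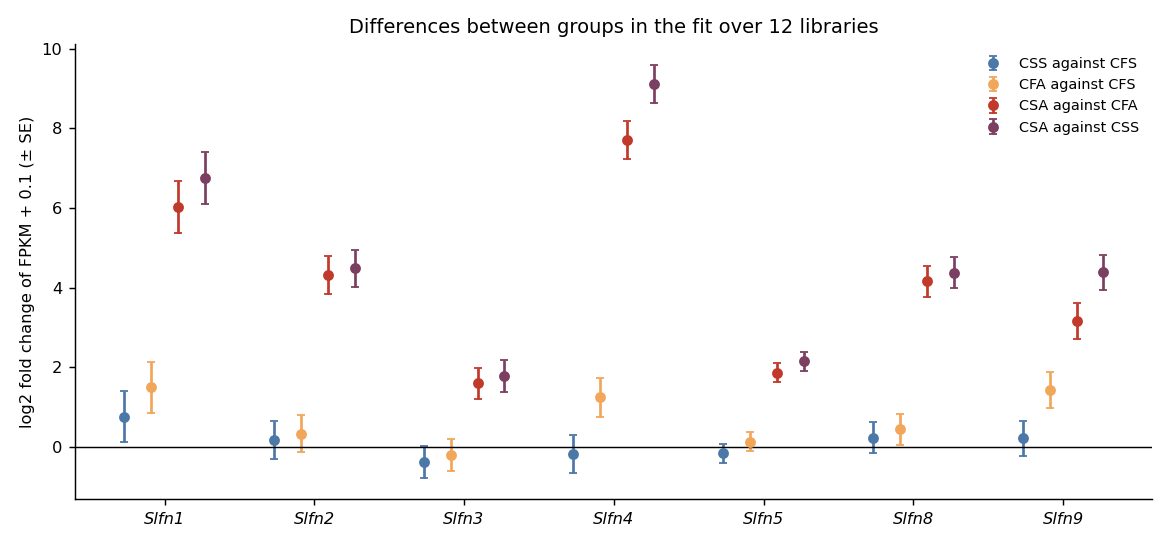
Log2 fold changes of FPKM + 0.1 (points, with standard errors as bars) for each Schlafen gene in the comparisons CSS against CFS, CFA against CFS, CSA against CFA and CSA against CSS. In CSS against CFS they run from -0.39 to 0.76, in CSA against CFA from 1.59 to 7.71, and in CSA against CSS from 1.78 to 9.12.

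In the comparison that chose them, CSA with CFA, all 7 genes were higher in every CSA mouse than in any CFA mouse, and all 7 were past the thresholds of a call. Of all tested genes 8.95% were called higher and 23.4% lay higher without overlap, and since this contrast chose the genes, nothing is read from their count. Only Slfn2, Slfn5 and Slfn8 reached 1 FPKM in at least 3 libraries outside CSA; the other 4 passed the filter on low values through the CSA libraries. The median log2 fold change was 4.16 over the 7 genes and -0.04 over all tested genes. In CSA against CSS, which shares the CSA libraries, 7 of 7 were past the thresholds and without overlap as well (10.9% and 26.3% of tested genes), with a median of 4.38 against -0.06.

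Of the intermediate members, Slfn4 had the largest and Slfn3 the smallest difference of the family. Slfn4 (ENSMUSG00000000204) was 230.5, 223.0 and 198.8 FPKM in CSA mice 01, 02 and 03, from 18554, 18755 and 12075 fragments, while the CFA mice held 36, 227 and 57 fragments. The lowest CSA mouse was 73.7 times the highest CFA mouse and 635.0 times the highest CSS mouse. The log2 fold change was 7.71 (SE 0.48) against CFA, the highest of 14676 tested genes, and 9.12 (SE 0.48) against CSS, the second highest there. By level, Slfn4 moved from place 13985 of the tested genes in CFS and 12489 in CFA to place 142 in CSA. Slfn3 (ENSMUSG00000018986), whose gene begins just after the end of Slfn4, was 2.05, 1.93 and 2.70 FPKM in CSA (140 to 142 fragments each) and 0.417, 0.939 and 0.733 in CFA. The groups did not overlap, with the lowest CSA mouse 2.06 times the highest CFA mouse, and the log2 fold change was 1.59 (SE 0.40) against CFA and 1.78 (SE 0.40) against CSS. This value lies just inside the threshold of 1.5: it was 1.45 without CSA mouse 03, 1.31 without CFA mouse 71, 0.93 with a pseudocount of 1, and, against CSS, 1.35 without CSS mouse 56. Slfn3 had 423 fragments in CSA beside 49384 of Slfn4, and 95.3% of their aligned coding bases are identical, although no 150-base stretch is shared. Whether the counting divided fragments between these 2 genes was not tested, so the value of Slfn3 is uncertain.

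Of the short members, Slfn1 had the larger difference. Slfn1 (ENSMUSG00000078763) was 63.7, 65.5 and 93.0 FPKM in CSA (2409 to 2657 fragments), against 0.517, 4.22 and 0.430 in CFA. Its means differed 43.0-fold from CFA, or 156.3-fold without CFA mouse 72, and 128.6-fold from CSS, with log2 fold changes of 6.02 (SE 0.65) and 6.76 (SE 0.65), the 17th and 16th highest of all tested genes. Slfn2 (ENSMUSG00000072620) was 128.2, 139.4 and 145.7 FPKM in CSA and 4.17, 18.4 and 4.03 in CFA. Its log2 fold change was 4.32 (SE 0.47) against CFA and 4.48 (SE 0.47) against CSS. Over all 3 CSA mice its values lay closest to each other, relative to their mean, of all members. Between CSA mice 01 and 02 alone, those of Slfn1 (63.7 and 65.5) lay closer than those of Slfn2.

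The long members differed among themselves. Slfn8 (ENSMUSG00000035208) was 31.3, 28.7 and 60.1 FPKM in CSA and 1.38, 4.03 and 1.46 in CFA, a log2 fold change of 4.16 (SE 0.39). Slfn9 (ENSMUSG00000069793), the closest relative of Slfn8, was 10.4, 9.94 and 21.2 FPKM in CSA and 1.4, 2.76 and 0.641 in CFA, a log2 fold change of 3.15 (SE 0.45). Against CSS these 2 genes had log2 fold changes of 4.37 and 4.38, which became 3.83 and 3.20 with a pseudocount of 1, and from CFS to CFA the log2 fold change was 1.43 for Slfn9 and 0.44 for Slfn8. Slfn5 (ENSMUSG00000054404), the member that leads in saline mice, was 60.9, 50.0 and 83.9 FPKM in CSA and 15.1, 22.5 and 15.5 in CFA. Its log2 fold change was 1.86 (SE 0.24) against CFA and 2.15 (SE 0.24) against CSS, the 1134th and 1231st highest of tested genes, although its absolute gain of FPKM exceeded that of Slfn8 and Slfn9.

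CSA mouse 03, the library that stood apart, lay above both other CSA mice for 6 of 7 members, most of all for Slfn9 (2.09 times their mean), Slfn8 (2.01 times) and Slfn5 (1.51 times), and below both for Slfn4 (0.877 times); 43.8% of all tested genes lay above both in this mouse. Without it, the log2 fold changes from CFA to CSA were 7.77 for Slfn4, 5.85 for Slfn1, 4.28 for Slfn2, 3.82 for Slfn8, 2.80 for Slfn9, 1.66 for Slfn5 and 1.45 for Slfn3, in the same order as with it. Against CSS they were 9.19, 6.58, 4.44, 4.04, 4.03, 1.95 and 1.64 for these genes in this order. The mean level in CSA without this mouse was 30.0 FPKM for Slfn8, 10.2 for Slfn9, 55.4 for Slfn5, 64.6 for Slfn1, 133.8 for Slfn2, 226.8 for Slfn4 and 1.99 for Slfn3. Without CFA mouse 72, the log2 fold changes from CFA to CSA were 8.42 for Slfn4, 7.00 for Slfn1, 5.04 for Slfn2, 4.64 for Slfn8, 3.63 for Slfn9, 2.05 for Slfn5 and 1.81 for Slfn3.

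Of the other Schlafen genes of the annotation, only the pseudogene Slfn10-ps was tested. It was 3.06, 3.15 and 4.78 FPKM in CSA and 0.228, 0.325 and 0.117 in CFA, with a log2 fold change of 3.56 (SE 0.38), and the groups did not overlap. Slfn14, a long member known from platelets and red cell precursors, had 0 to 5 fragments per mouse and was highest in CFA (5, 1 and 4 fragments) and at 0 to 1 in CSA. Slfnl1, a Schlafen-like gene on chromosome 4, had 0 to 2 fragments per mouse and 0 in all 3 CSA mice, where a 0 allows up to 3 fragments by counting error alone. These 2 genes were too low to be tested in any comparison.

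The flanking genes described here, 3 in number, were not called. On the side of Slfn5, Unc45b, a myosin chaperone that ends 7946 bp before the cluster, was 1.86 ± 0.288 FPKM in CSA and 1.69 ± 0.479 in CFA (SD, n = 3 each; log2 fold change 0.16, limma adjusted p = 0.72), and Nle1, a ribosome assembly factor, had a log2 fold change of 0.16 (adjusted p = 0.6). On the side of Slfn14, Ap2b1, a subunit of the clathrin adaptor, was 17.2 ± 0.817 FPKM against 16.1 ± 0.464 (SD, n = 3 each; log2 fold change 0.10, limma adjusted p = 0.509). Within the cluster, the size of the difference rose from Slfn5 through Slfn9 and Slfn8 and from Slfn2 through Slfn1 to Slfn4, and the next gene, Slfn3, had the smallest.

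**Figure D4:**
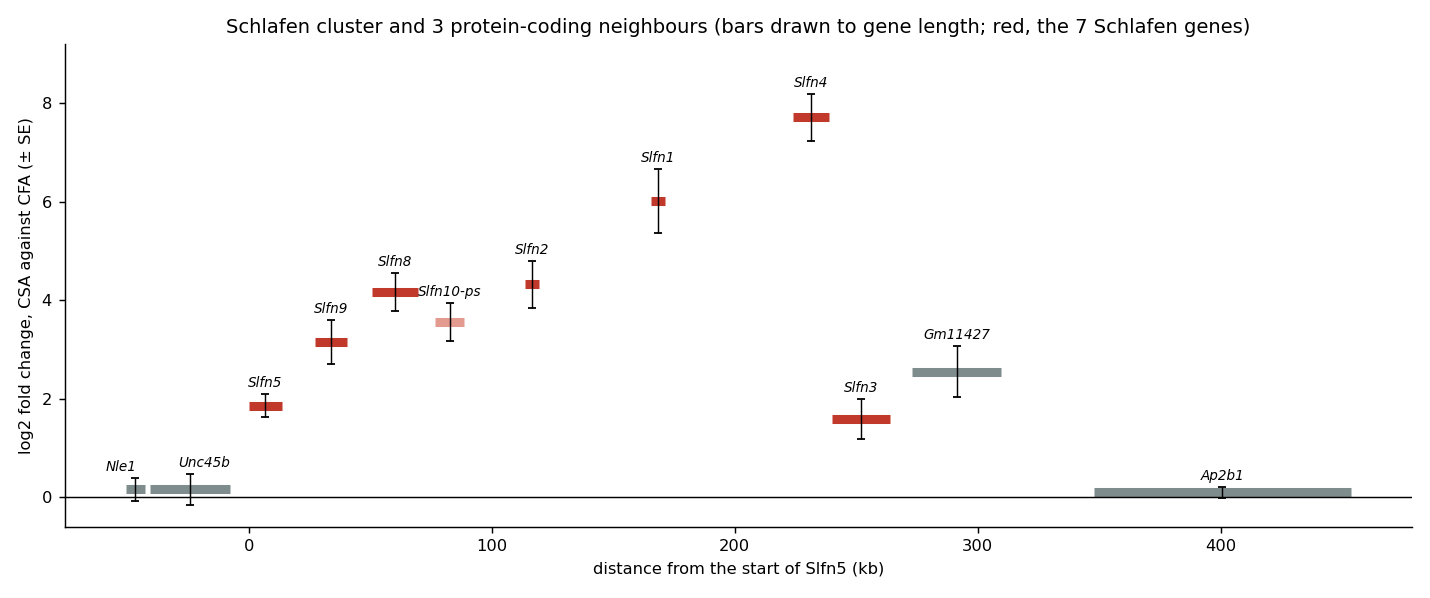
Log2 fold change of CSA against CFA (± SE) of the Schlafen genes, 2 pseudogenes of the cluster and 3 tested protein-coding genes beside it, drawn at their distance in kb from the start of Slfn5, with bars as long as the genes. The Schlafen genes lie between 1.59 and 7.71, and the flanking genes Nle1, Unc45b and Ap2b1 between 0.10 and 0.16.

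Because several members are known to respond to interferon, a list of 61 genes of the interferon pathway was read in the same comparison by role. Interferons signal through cell surface receptors and JAK kinases to STAT and IRF transcription factors, which switch on antiviral effectors, while feedback inhibitors damp the signal. Of 52 tested list genes, 41 were called higher in CSA against CFA and 0 lower, where 8.95% of all tested genes were called higher. The median log2 fold change was 2.79. Some list genes passed the filter on low values only through the CSA libraries, such as Oas3 (mean 0.315 FPKM in CFA, 15.1 in CSA). A call of such a gene could only be higher, so nothing is read from this count. In CSS against CFS and in CFA against CFS 0 of 52 were called, where calls were rare among all genes (0.00681% and 0.0204% called higher). None of the 8 ligand genes passed the filter: Ifng had at most 11 fragments in a CSA mouse, Ifnb1 at most 3 and Ifna4 at most 2, and Ifna1, Ifna2, Ifne, Ifnl2 and Ifnl3 were at 0 in all 3 CSA mice.

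Of the receptors 1 of 5 was called, Il10rb, a chain of the lambda interferon and interleukin-10 receptors, with a log2 fold change of 1.66 (SE 0.12). Ifnar2, a chain of the type I receptor, stood just under the fold limit at 1.49 (SE 0.11, limma adjusted p = 2.84e-06). Of the kinases 0 of 3 passed the fold limit, with Jak2 at 1.23 (limma adjusted p = 0.00121) and Jak1 at 0.54 (adjusted p = 0.00603). Of the transcription factors 6 of 8 were called higher, led by Irf7, the factor that amplifies type I interferon responses (119.7 ± 19.1 FPKM in CSA, 3.24 ± 2.45 in CFA, SD, n = 3 each; log2 fold change 5.42), and Irf8, a factor of myeloid cells (2.99). All 31 induced effectors rose, with a median of 3.69 and the largest values for Cxcl10, a chemokine for T cells (5.66, SE 1.05), and Oas3, a sensor of double-stranded RNA (5.55, SE 0.53). Of the feedback inhibitors 3 of 5 were called higher, among them Usp18, which blocks signalling at the type I receptor (3.94), and Ptpn6, a phosphatase of blood cells (3.67). The Schlafen members spanned a wider range, 1.59 to 7.71, than the induced effectors, and Slfn4 and Slfn1 lay above all 31 of them. The members were chosen on this contrast, so nothing is read from their place beside the effectors. In CSA mouse 03 the summed FPKM of the list was 2873.1, below the 3519.9 and 3301.6 of the other CSA mice. In this mouse, the library that stood apart, 6 of 7 Schlafen genes lay above both other CSA mice, as did 43.8% of all tested genes. A relation between the list and the Schlafen values was not tested.

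**Figure D5:**
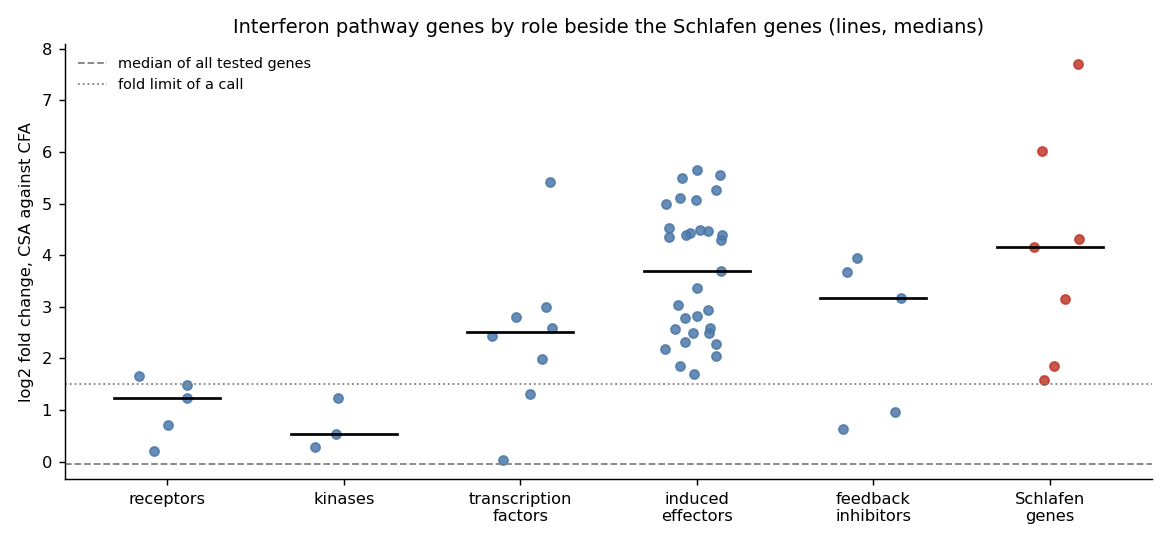
Log2 fold changes of CSA against CFA for tested genes of the interferon pathway by role and for the 7 Schlafen genes (points, 1 per gene, spread sideways for legibility; lines are medians). The medians are 1.24 for receptors, 0.54 for kinases, 2.52 for transcription factors, 3.69 for induced effectors, 3.17 for feedback inhibitors and 4.16 for the Schlafen genes; the dashed line marks the median of all tested genes, -0.04, and the dotted line the fold limit of 1.5.

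Markers of blood cells moved in the same comparison. The summed FPKM of the 14 macrophage and monocyte markers was 2772.2, 2787.6 and 2579.2 in the CSA mice, 5.31 times the CFA mean, and 12 of 14 were called higher. The sum of 12 neutrophil markers was 531.4 to 583.6 in CSA and 11.3 to 28.2 in CFA, a ratio of 26.9. All 10 tested were called higher, and Ngp and Mpo were at 0 in all CFA mice. Under saline this sum was 3.82 to 15.7 FPKM in CFS and 4.42 to 5.75 in CSS. Such low markers could pass the filter through the CSA libraries alone and then only be called higher, so nothing is read from their count. Summed T cell markers (9 genes) were 25.0 to 35.8 FPKM in CSA and 0.875 to 2.58 in CFA, NK cell markers (7 genes) 19.4 to 33.1 and 1.37 to 4.57, B cell markers (7 genes) 7.18 to 12 and 1.57 to 2.90, and dendritic cell markers (6 genes) 19.8 to 22.6 and 6.32 to 8.30. Endothelial markers (7 genes) went from 197.6 to 429.3 FPKM in CFA to 112.0 to 141.5 in CSA, with a ratio of means of 0.408; Pecam1, Tek and Vwf were called lower and Emcn, a sialomucin of endothelial cells, higher (log2 fold change 1.56, SE 0.39, limma adjusted p = 0.00836). The ratios of means of Slfn4 (172.0) and Slfn1 (43.0) were above those of all these lists. Those of Slfn8 (17.5), Slfn2 (15.6), Slfn9 (8.64), Slfn5 (3.67) and Slfn3 (3.20) lay between that of the neutrophil list and that of the dendritic cell list (2.96), with 17.8 for T cells, 10.7 for NK cells and 4.06 for B cells. Without CFA mouse 72 the ratio was 397.1 for Slfn4, 156.3 for Slfn1, 33.6 for Slfn2, 28.1 for Slfn8, 13.6 for Slfn9, 4.25 for Slfn5 and 3.87 for Slfn3. The lists then stood at 33.0 for neutrophils, 25.1 for T cells, 17.7 for NK cells, 7.08 for macrophages and monocytes, 4.38 for B cells and 3.25 for dendritic cells. Without CSA mouse 03, the ratios of Slfn8 and Slfn9 were 13.1 and 6.34. The ratio of a member is that of a single gene, while the ratio of a list is that of a sum of markers. The members were also chosen on this contrast, so nothing is read from the order of these ratios. The part of the cell makeup in the Schlafen differences was not tested.

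Finally, the genes with the most similar pattern over the 12 libraries were taken for each member, by Pearson correlation of log2(FPKM + 0.1). These values are a description: the CSA libraries lie apart from the others for each member and set most of the correlation. Slfn1 was most like Ikzf1, a transcription factor of lymphocytes (r = 0.998), Laptm5, a lysosomal protein of blood cells, and Nckap1l, a blood cell actin regulator. Slfn2 was most like Fcgr1, the high-affinity IgG receptor of monocytes and macrophages (0.996), Sap30 and the interferon-induced Oas2. Slfn4 was most like the chloride channel accessory gene Clca3a2 (0.996), the GTPase gene Rhov, and Ctss, a protease of antigen-presenting cells, which went from 33.8 to 712.9 FPKM between CFA and CSA. Slfn8 was most like Msr1, a macrophage scavenger receptor (0.996), and the interferon-inducible Ifi213 and Ifi211, and Slfn9 was most like Ifit1bl1 (0.991), Dpy19l1 and Dapp1. Slfn5 was most like Ivns1abp (0.993), Rab8b and Gng2. Slfn3 had the lowest values, with Gimap8 (0.954), Cdh2 and Igfbp3. Of all these similar genes, only Fcgr1 is a marker on the blood cell lists.

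Between members, r over 12 libraries ran from 0.814 (Slfn3 with Slfn9) to 0.987 (Slfn2 with Slfn8). Over the 9 mice outside CSA, the highest r was 0.920 for Slfn2 with Slfn8 and the lowest 0.080 for Slfn3 with Slfn9, and CFA mouse 72, high for every member, is among these 9. The neighbours Slfn4 and Slfn3, the most alike in coding sequence, had an r of 0.323 over these 9 mice, and Slfn8 and Slfn9 an r of 0.698.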

How the data were processed

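Aortic RNA-Seq libraries of 12 male mice, 3 per group, were used, with group and mouse number taken from the labels. Libraries were made from poly(A) RNA and sequenced as 150 bp paired ends. The values deposited by the authors are FPKM, fragments scaled by gene length and library size, with 1 column per mouse and no pooling. The submitters' processing notes list HISAT2 2.0.5, StringTie 1.3.3b, featureCounts 1.5.0-p3 and the build mm10, while the annotation and counting options are not given in the sources used here. With GENCODE M21 exon lengths, 98.04% to 98.53% of values under 100 fragments came out whole within 0.05 fragments, which gave the fragments and depth quoted. The deposited values also carry a scaling between libraries whose method is not given in the sources used here. A listed 0 leaves room for 3 fragments, a limit that covers counting error only.

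The study's methods name DEG-Seq, a test of counts. Here the deposited unit was kept, no count test was run on the recovered fragments, and log2(FPKM + 0.1) was fitted with limma 3.58.1 in R 4.3.3 (1 coefficient per group over 12 libraries, eBayes with trend and robust). Genes with at least 1 FPKM in at least 3 libraries were tested (14676), p-values were two-sided and adjusted by the Benjamini-Hochberg method over all of them, and calls needed an adjusted p below 0.05 with a log2 fold change beyond 1.5 in either direction, the fold limit of the study. Fold changes on this scale understate those of low genes. P-values weigh each difference against the spread between mice, which is pooled over all groups and moderated across genes by eBayes. On simulated data for CSA against CFA (13740 genes), 196 of 200 genes changed 8-fold and 2 unchanged genes were called. These changes were all upward, in genes with a mean log2(FPKM + 0.1) above 1, with normal noise and otherwise equal group means. In the deposited data 1314 genes were called higher and 1214 lower in this contrast. The simulated rates therefore need not hold there or for genes of low level. The Schlafen genes, the marker and interferon lists, the 3 most similar genes per member, the 2 flanking genes on each side (1 of them is not reported here) and the 2 list genes of each role with the largest change were chosen with earlier results of these data known. Markers of fibroblasts (ratio of summed FPKM, CSA to CFA, 1.72) and adipocytes (0.266) were also summed. Python 3.11.15 was used with numpy 2.4.6, pandas 2.3.3 and, for figures, matplotlib 3.10.9.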

Additional observations from a re-analysis of the deposited data

Results flagged for a closer look

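The genotype difference of Slfn4 had opposite signs under saline and under Ang II: all 3 CSS mice lay below the CFS mean of 0.346 FPKM, with a difference of -0.0327 FPKM for the highest of them, while all 3 CSA mice lay above the CFA mean of 1.26 FPKM. The difference between these effects was not tested here because CSA chose the gene, and the saline difference alone was within the spread between mice (log2 fold change -0.18, SE 0.48). With 3 mice per group, single mice could not be compared with their group by a gap criterion.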

How the results depend on the processing

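For each comparison, 18 alternative settings were tried: a pseudocount of 1, no filter, equal FPKM totals, eBayes without trend or robust, only the 2 groups compared, no fold limit, and leaving out each mouse in turn. Where a group was left with 2 mice, the spread was pooled over all groups. In CSS against CFS 0 members were called under every setting, and in CFA against CFS 0 to 1 when mice were left out, the 1 being Slfn9 without CFA mouse 74. The members past the thresholds numbered 6 to 7 in CSA against CFA and in CSA against CSS. Of 119 member fold changes per comparison, 2 changed sign in CSS against CFS and 5 in CFA against CFS, all when a mouse was left out: in CSS against CFS, Slfn2 ranged from -0.04 to 0.29 and Slfn3 from -0.62 to 0.04, and in CFA against CFS, Slfn2 from -0.39 to 0.69, Slfn3 from -0.43 to 0.08, Slfn5 from -0.06 to 0.26 and Slfn8 from -0.04 to 0.70. None changed sign in the comparisons with CSA. With a pseudocount of 1, Slfn4 was 6.72 and Slfn3 0.93 in CSA against CFA, and Slfn4 7.40, Slfn1 5.55, Slfn8 3.83, Slfn9 3.20 and Slfn3 1.0 in CSA against CSS. The interferon list was added after the data were seen and was not tried without a fold limit. Under the other settings it gave 41 to 43 higher calls. Ratios of means, also added then, were taken without CFA mouse 72 and without CSA mouse 03. No paired analysis was possible because no mouse number occurs in 2 groups. Depth limits Slfn1, Slfn3, Slfn4 and Slfn9 most, with 6 to 65 fragments per mouse under saline.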
